A study of Mus musculus with 18 samples.

Results

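Notch signaling was examined through 10 genes of the pathway in RNA-seq of regulatory T cells (Tregs) that lack the IL-2 receptor subunit CD25. The genes were the receptors Notch1, Notch2 and Notch3, the ligands Jag2 and Dll1, the transcription complex genes Rbpj and Maml1, and the target genes Hes1, Dtx1 and Nrarp. They were chosen by name, as the rows of the count table whose Ensembl identifier has one of these symbols, and are 10 of its 50600 rows. All 10 were found. After the filter on low counts, 9 were tested in the thymus, all but Hes1, and 7 in the spleen, where Notch3, Dll1 and Hes1 were left out.

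The study asked how gene expression of thymic and splenic Tregs depends on CD25, with cells sorted by FACS from 18 C57BL/6 mice. For the thymus, 5 CD25 cKO mice were set against 5 Foxp3/RFP controls with intact CD25 (WT), all at 3 to 4 weeks of age. In CD25 cKO mice a floxed Il2ra allele is cut by Foxp3 YFP/Cre, a Cre driven by the Foxp3 gene, so that deletion begins in the thymus once Foxp3 is on. These mice had been given WT splenocytes as neonates, which “cured” them of autoimmunity, whereas no such transfer is described for the controls. For the spleen, 4 reporter mice with intact CD25 were set against 4 mice of the strain CD25 flox/Foxp3eGFP-Cre-ERT2/R26Y, whose Cre is also driven by Foxp3 but is inducible. Both splenic groups received tamoxifen at 7 to 10 weeks of age, which activates the Cre, and were collected 10 to 14 days later. The column headers of the count table also carry 1 date for all splenic and another for all thymic libraries. The tissue, the age, the mouse model, the controls and this date thus change together between thymus and spleen and cannot be told apart. The KO and control Tregs of the thymus also carry different Foxp3 reporter alleles, and cured mice hold donor Tregs beside their own. The donors were congenic and the sort used reporters and surface markers, by which host and donor cells can be separated.

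Total counts were 17239774 to 23993674 per thymic library and 25258341 to 32639570 per splenic library. Levels are given as CPM, the share of a library's counts scaled to a common total, after TMM scaling. Il2ra, which encodes CD25, was 524 to 682 CPM in thymic WT and 95.8 to 280 CPM in thymic KO mice, and 488 to 538 CPM in splenic WT and 168 to 208 CPM in splenic KO mice. In both tissues the KO range lay wholly under the WT range, with a log2 difference of -1.90 in the thymus (adjusted p = 0.00239) and -1.49 in the spleen (adjusted p = 1.39e-09). Gene counts do not separate the deleted exon from the rest of the transcript. Thymic KO mice 2 and 4 stood apart, with Il2ra at 280 and 234 CPM against 95.8 to 105 CPM in the other 3, and results that rest on them are given with and without both.

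Notch receptors are single-pass membrane proteins that are cut by ADAM proteases and γ-secretase after they bind a Delta-like or Jagged ligand on a neighbouring cell. The released intracellular part enters the nucleus and joins the DNA-binding protein RBPJ and a Mastermind-like coactivator, and this complex turns on targets such as the Hes genes, Dtx1 and Nrarp. Notch1 is required for commitment to the T lineage in the thymus, and Notch signals in mature CD4+ T cells affect their differentiation and survival. RBPJ also represses target genes with corepressors when no receptor has been cut.

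The RBPJ core motif TGGGAA and the STAT motif TTCNNNGAA were searched on both strands of RefSeq promoter windows (GRCm38.p6) that reach from 250 bases before to 50 bases after each start. The second motif reads alike on both strands, and the motifs do not overlap in any of these windows. The table holds 11 windows for 9 of the 10 genes, and has no entry for Hes1. TGGGAA was present in 2 of the 11 windows, both of Rbpj, against 25.6% of all 32851 windows. TTCNNNGAA was present in 1 of the 11, at the start of Notch3, against 8.30% of all windows. The sequences upstream of the starts of Notch2 and of Rbpj are printed because Notch2 passed the threshold between KO and WT in the spleen, and Rbpj in the test of the difference of the KO effect between tissues, both described below. Rbpj has 2 windows that overlap, and the first is printed. It lies inside the GENCODE gene, downstream of its annotated 5′ end. Capitals mark TGGGAA or its reverse complement TTCCCA.
Notch2, chr3:98013288-98013537, plus strand: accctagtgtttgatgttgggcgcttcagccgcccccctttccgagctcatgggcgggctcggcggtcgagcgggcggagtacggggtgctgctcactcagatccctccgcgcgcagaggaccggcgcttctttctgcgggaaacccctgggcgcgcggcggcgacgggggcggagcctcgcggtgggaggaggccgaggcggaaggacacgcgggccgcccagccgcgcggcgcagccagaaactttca
Rbpj, chr5:53590096-53590345, plus strand: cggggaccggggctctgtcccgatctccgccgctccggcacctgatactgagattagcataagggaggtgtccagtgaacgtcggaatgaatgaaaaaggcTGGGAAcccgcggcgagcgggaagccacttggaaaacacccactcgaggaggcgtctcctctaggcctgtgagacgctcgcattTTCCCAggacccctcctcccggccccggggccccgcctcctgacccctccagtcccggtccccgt
The Rbpj sequence held TGGGAA starting 149 bases before the start on the plus strand and TTCCCA starting 65 bases before it. The Notch2 sequence held neither motif, which says only that these letters are not in this window.

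Between KO and WT, only Notch2 in the spleen passed the threshold, an adjusted p under 0.01 over all genes tested (edgeR quasi-likelihood test, Benjamini-Hochberg). Notch2 was also lower in the thymus (log2 difference -0.76), just outside the threshold, and its effects were not called different between tissues (adjusted p = 0.154, edgeR). The difference of the KO effect between spleen and thymus passed for Rbpj alone. That call was lost in 10 of the 18 fits that left out 1 mouse, and age, mouse model, controls and date change with the tissue. In the thymus 0 of 9 genes passed, against 6.16% of all genes tested (2.99% lower and 3.17% higher). At an unadjusted p under 0.05, 5 of the 9 passed, Notch2, Notch3, Dll1, Rbpj and Dtx1, against 37.9% of all genes. DESeq2 gave no adjusted p for Dll1 and called 3 of the others, Notch2, Rbpj and Dtx1, against 16.9% of the 16315 genes to which it gave one. All 9 fitted differences in the thymus were below 0, with a median log2 difference of -0.38 against -0.0022 over all genes. With a trend in GC content removed from each library this was no longer so, since Jag2 was at 0.090, and Notch1, Maml1 and Nrarp were between -0.038 and -0.0031. In the spleen 1 of 7 genes passed, Notch2, which was lower, against 9.45% of all genes tested (3.55% lower and 5.90% higher). DESeq2 called 3 of the 7, Notch2, Jag2 and Nrarp, against 12.3% of all genes. The median of the 7 in the spleen was -0.086 against -0.0065 over all genes. These are bulk samples, in which fewer cells of a type and less RNA per cell cannot be told apart.

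**Figure D1:**
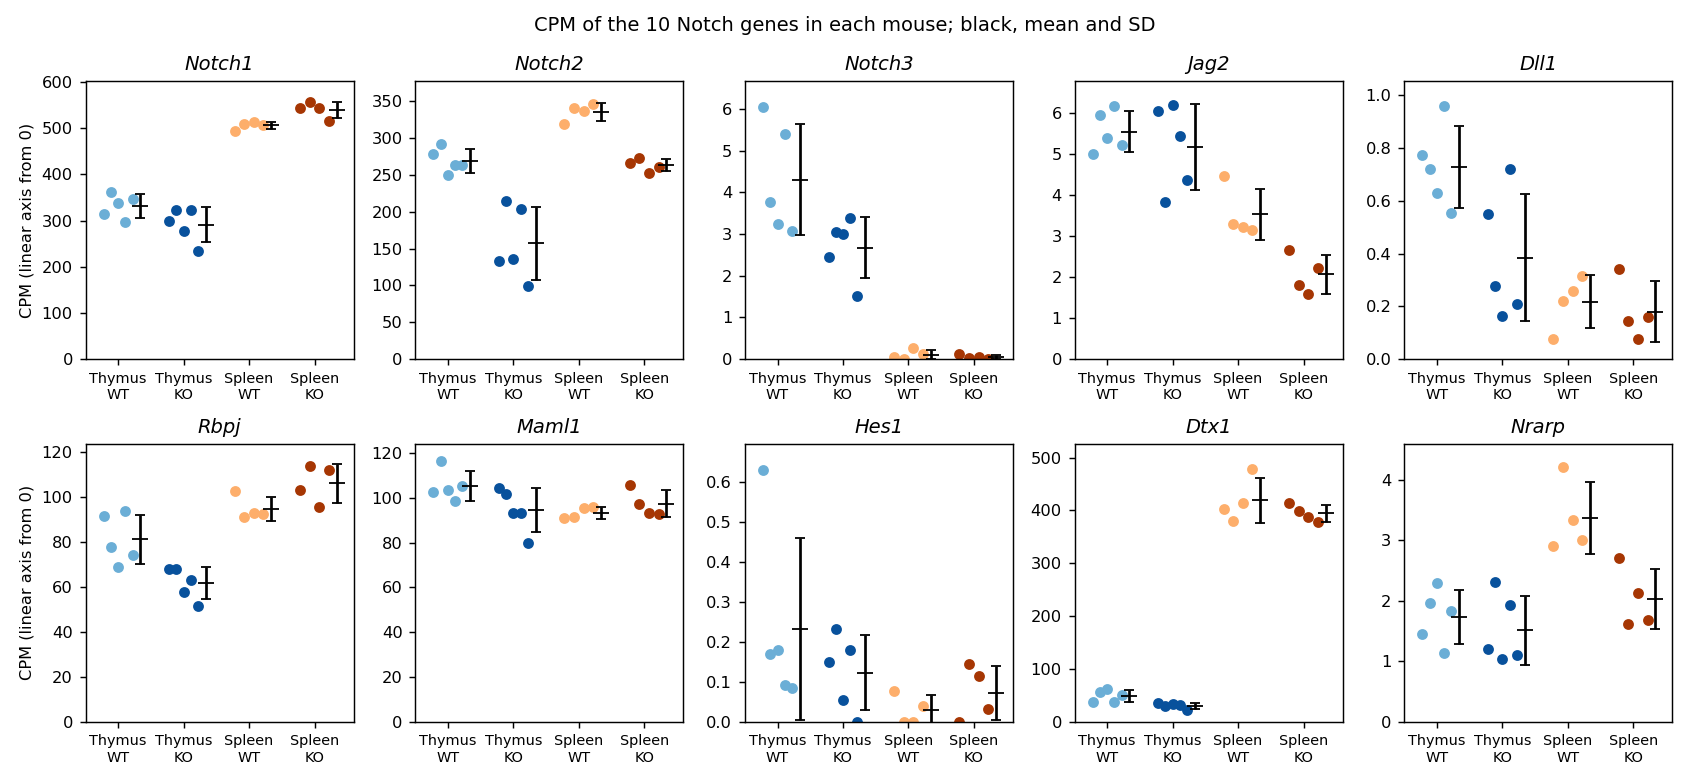
CPM of each of the 10 genes on a linear axis from 0, with 1 point per mouse in the order of the mouse numbers, and the mean and SD of each group in black (n = 5 per thymic and 4 per splenic group). Notch2 of every KO mouse lies below every WT mouse of the same tissue, and Dtx1 is at least 378 CPM in every splenic mouse against at most 61.5 CPM in the thymus.

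Notch1 (ENSMUSG00000026923.15, chr2:26457903-26516663, minus strand) is the receptor best known for its part in T cell development. In the thymus its CPM was 314, 363, 339, 297 and 347 in WT and 299, 323, 276, 323 and 234 in KO mice. The groups overlapped, and the log2 difference was -0.17 ± 0.088 (SE, adjusted p = 0.170, edgeR). It was -0.29 without KO mice 2 and 4 (adjusted p = 0.0288), -0.10 without KO mouse 5, which was the lowest, and -0.020 with a trend in GC content removed from each library. In the spleen Notch1 was 494, 510, 513 and 508 CPM in WT and 544, 557, 543 and 515 CPM in KO mice. All 4 splenic KO mice were above all 4 WT mice, by 1.07-fold, yet the log2 difference of 0.094 ± 0.047 did not pass (adjusted p = 0.196, edgeR).

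Notch2 (ENSMUSG00000027878.11, chr3:98013527-98150361, plus strand) encodes a second receptor, best known in lymphocytes for marginal zone B cells. Its splenic CPM was 319, 341, 336 and 346 in WT and 267, 273, 253 and 261 in KO mice. No mice of the 2 groups overlapped, and Notch2 fell by 21.4%, a log2 difference of -0.35 ± 0.048 (SE, 95% interval -0.45 to -0.25, adjusted p = 1.25e-04, edgeR). The call was lost when all 18 samples shared 1 estimate of the spread (adjusted p = 0.170), with a log2 difference of -0.35, and over all such settings the adjusted p ranged from 4.16e-11 to 0.170. In the thymus Notch2 was 278, 293, 250, 263 and 264 CPM in WT and 133, 214, 136, 204 and 99.7 CPM in KO mice. Here too the groups did not overlap, and the 2 highest KO mice were mice 2 and 4, which also had the most Il2ra of their group. The log2 difference in the thymus was -0.76 ± 0.17 (95% interval -1.13 to -0.38, adjusted p = 0.0116, edgeR), just outside the threshold, and DESeq2 gave an adjusted p of 0.000268. Without KO mouse 2 it was -0.90 (adjusted p = 0.00524, edgeR), without KO mouse 4 it was -0.87 (adjusted p = 0.00721), and without both it was -1.12 (adjusted p = 3.94e-05). The last was chosen after seeing the data, and over all settings other than leaving out 1 mouse the adjusted p ranged from 3.94e-05 to 0.0195. The gene models Gm42819 and Gm42820 overlap Notch2 on its strand, with at most 283 counts per library in the former.

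The balance of the 2 main receptors, a ratio within each library that does not depend on scaling, was 1.13 to 1.36 Notch1 CPM per Notch2 CPM in thymic WT and 1.51 to 2.34 in thymic KO mice. In the spleen it was 1.47 to 1.55 in WT and 1.97 to 2.15 in KO mice. In both tissues the ratio was higher in every KO mouse than in any WT mouse. It is given as a description, since the ratio was chosen after the values were seen.

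Notch3 (ENSMUSG00000038146.7, chr17:32120820-32166852, minus strand), a receptor that in T cells is mostly known from immature thymocytes, was low. It was 6.05, 3.78, 3.23, 5.39 and 3.07 CPM in thymic WT mice and 2.45, 3.04, 2.99, 3.38 and 1.52 CPM in thymic KO mice, which are 29 to 75 counts per library in the latter. The groups overlapped, WT mice 1 and 4 were the highest, and the log2 difference was -0.66 ± 0.25 (adjusted p = 0.0685, edgeR). Without KO mice 2 and 4 it was -0.88 (adjusted p = 0.0445, edgeR). In the spleen all 8 libraries together held 10 counts in WT and 5 in KO mice, with 0 to 6 per library, so that no difference was detectable at this depth. The floor of detection, taken as 3 counts, is at most 0.163 CPM in a thymic and 0.128 CPM in a splenic library, for counting error alone.

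Jag2 (ENSMUSG00000002799.5, chr12:112907819-112929776, minus strand) encodes a Jagged ligand. In the spleen it was 4.45, 3.29, 3.21 and 3.15 CPM in WT and 2.66, 1.80, 1.59 and 2.22 CPM in KO mice. All KO mice were below all WT mice, and WT mouse 1 stood above the other 3 controls. The log2 difference was -0.77 ± 0.19 (SE, 95% interval -1.18 to -0.36, adjusted p = 0.0114, edgeR). It passed without splenic KO mouse 1 (-0.91, adjusted p = 0.00534, edgeR), in DESeq2 (adjusted p = 0.00227), after upper-quartile scaling (0.00996) and with no filter on low counts (0.00152). With all mice the adjusted p was at most 0.0131, and with 1 mouse left out at most 0.0386. In the thymus Jag2 was 4.99, 5.95, 5.39, 6.17 and 5.21 CPM in WT and 6.05, 3.82, 6.20, 5.45 and 4.36 CPM in KO mice. These groups overlapped throughout, the log2 difference was -0.084 ± 0.14 (adjusted p = 0.702, edgeR), and its sign turned without KO mouse 2 (0.0053).

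Dll1 (ENSMUSG00000014773.13, chr17:15367354-15376872, minus strand), a Delta-like ligand, was near the floor. Thymic WT mice had 16, 17, 14, 21 and 13 counts and KO mice 11, 6, 3, 16 and 4 counts, so that KO mice 1 and 4 were the highest of their group and mouse 4 lay within the range of the controls. The log2 difference was -0.87 ± 0.36 (adjusted p = 0.101, edgeR), and it ranged from -1.24 to -0.69 when 1 mouse was left out. Without KO mice 2 and 4 it was -1.20 (adjusted p = 0.0524, edgeR). Splenic libraries held 2 to 8 counts in WT and 2 to 9 in KO mice and were not tested in that tissue.

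Rbpj (ENSMUSG00000039191.12, chr5:53466152-53657362, plus strand) encodes the DNA-binding protein to which every Notch receptor signals. Its thymic CPM was 91.6, 77.7, 69.0, 93.8 and 74.1 in WT and 68.1, 67.9, 57.9, 62.9 and 51.5 in KO mice. All KO mice were below all WT mice, with KO mouse 1 and WT mouse 3 less than 1 CPM apart. The log2 difference in the thymus was -0.38 ± 0.10 (SE, 95% interval -0.60 to -0.16, adjusted p = 0.0207, edgeR) and did not pass. Without KO mice 2 and 4 it was -0.45 (adjusted p = 0.0185, edgeR). In the spleen Rbpj was 103, 91.2, 92.7 and 92.4 CPM in WT and 103, 114, 95.4 and 112 CPM in KO mice. Here every KO mouse was above WT mice 2, 3 and 4, but KO mouse 3 lay below WT mouse 1. The groups thus overlapped, with a log2 difference of 0.16 ± 0.063 (adjusted p = 0.0893, edgeR). The pseudogene Rbpj-ps3 had at most 13 counts in any library.

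The difference between the effects in spleen and thymus was tested in 1 fit of all 18 samples, and Rbpj was the 1 of 9 genes that passed, against 6.98% of all genes tested (2.49% lower and 4.50% higher). The splenic effect on Rbpj exceeded the thymic effect by 0.56 ± 0.13 on the log2 scale (SE, 95% interval 0.29 to 0.83, adjusted p = 0.00653, edgeR). The call was lost after upper-quartile scaling (0.48, adjusted p = 0.0156) and in 10 of the 18 fits that left out 1 mouse. Those mice were thymic WT mice 1 and 4, thymic KO mice 3 and 4, splenic WT mice 2, 3 and 4 and splenic KO mice 1, 2 and 4. Over all 18 such fits the value stayed between 0.50 and 0.61, with adjusted p between 0.00402 and 0.0233. Rbpj has the lowest exonic GC content of the 10 genes (43.4%, against 54.5% to 61.0% in the others), and with a trend in GC content removed from each library its difference was 0.64 (adjusted p = 0.00147) and its thymic effect -0.53 (adjusted p = 0.0049). Over all settings other than leaving out 1 mouse, the adjusted p of the difference ranged from 0.000781 to 0.0156 and that of the thymic effect from 0.00268 to 0.0311. The other differences, spleen minus thymus, were 0.60 ± 0.19 for Dtx1 (adjusted p = 0.0335), -0.67 ± 0.24 for Jag2 (0.0607), 0.28 ± 0.11 for Notch1 (0.0805), 0.21 ± 0.096 for Maml1 (0.130), 0.43 ± 0.20 for Notch2 (0.154) and -0.55 ± 0.35 for Nrarp (0.286). Without thymic KO mice 2 and 4, a fit added after seeing the data, 3 genes passed. Calls over all genes rose as well, from 1305 to 2307. Notch1 was at 0.39 (adjusted p = 0.00706) and Notch2 at 0.78 (adjusted p = 3.15e-05), beside Rbpj. Mice 2 and 4 had the highest Notch2 of the thymic KO group (214 and 204 CPM). Leaving them out therefore enlarges its thymic effect by construction. Values for Notch3 and Dll1 rest on a few splenic counts, with 95% intervals of -2.18 to 1.42 and -0.78 to 2.02.

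**Figure D2:**
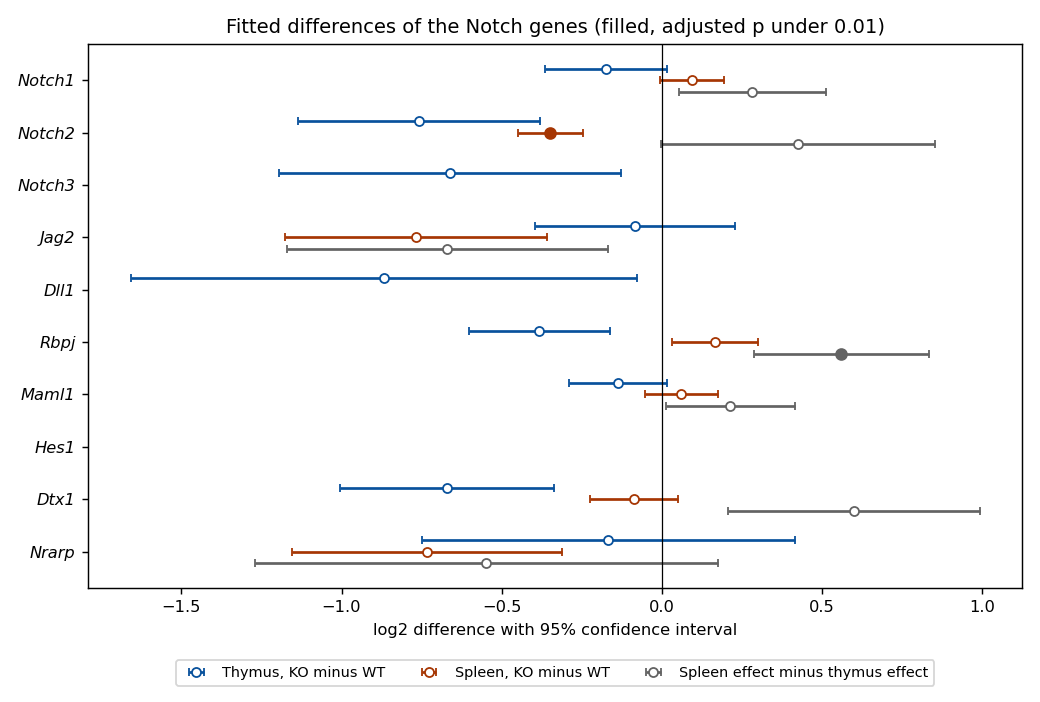
Fitted log2 differences with 95% confidence intervals for KO minus WT in the thymus (blue) and spleen (brown) and for the splenic effect minus the thymic effect (gray), filled where the adjusted p is under 0.01. The filled points are Notch2 in the spleen at -0.35 and the difference for Rbpj at 0.56, and genes not tested in a tissue have no point for it.

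Maml1 (ENSMUSG00000050567.16, chr11:50255634-50292311, minus strand), a Mastermind-like coactivator of the complex, differed little between groups. Its CPM was 102, 117, 104, 98.6 and 105 in thymic WT and 104, 102, 93.5, 93.3 and 79.8 in thymic KO mice, and it was 90.9, 91.4, 95.4 and 95.8 in splenic WT and 106, 97.3, 93.3 and 92.9 in splenic KO mice. The groups overlapped in both tissues. The log2 difference was -0.14 ± 0.071 in the thymus (95% interval -0.29 to 0.016) and 0.061 ± 0.054 in the spleen (95% interval -0.053 to 0.18), with adjusted p of 0.175 and 0.488 (edgeR). The thymic value was -0.082 without KO mouse 5 and -0.0031 with the GC trend removed. The antisense gene Gm26542 overlaps Maml1 with at most 237 counts per library, and how strand was used in counting is not given in the sources used here.

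Dtx1 (ENSMUSG00000029603.15, chr5:120680202-120711927, minus strand) encodes Deltex1, a ubiquitin ligase that binds Notch and is itself a Notch target in T cells. In the thymus it was 38.0, 56.3, 61.5, 37.5 and 50.7 CPM in WT and 35.7, 30.5, 32.8, 30.9 and 21.6 CPM in KO mice. Every KO mouse was below every WT mouse, with WT mice 1 and 4 the nearest to them. The log2 difference was -0.67 ± 0.15 (SE, 95% interval -1.01 to -0.34, adjusted p = 0.0115, edgeR), just outside the threshold, and DESeq2 gave an adjusted p of 0.000428. Without WT mouse 1 it was -0.75 (adjusted p = 0.00956, edgeR) and without WT mouse 4 it was -0.75 (adjusted p = 0.00841). Over the other settings tried with all mice or without KO mice 2 and 4, its adjusted p ranged from 0.000428 to 0.0401. In the spleen Dtx1 was 403, 381, 414 and 478 CPM in WT and 414, 398, 387 and 378 CPM in KO mice, which overlapped, with a log2 difference of -0.086 ± 0.065 (adjusted p = 0.407, edgeR).

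Nrarp (ENSMUSG00000078202.3, chr2:25180758-25183339, plus strand), a Notch-induced inhibitor that binds the Notch and RBPJ complex, was low. In the spleen it was 2.90, 4.21, 3.34 and 2.99 CPM in WT and 2.70, 1.62, 2.12 and 1.68 CPM in KO mice. All KO mice were below all WT mice, with KO mouse 1 closest to them. The log2 difference was -0.73 ± 0.20 (SE, 95% interval -1.15 to -0.31, adjusted p = 0.0174, edgeR), and it passed without KO mouse 1 (-0.90, adjusted p = 0.00576), in DESeq2 (adjusted p = 0.00545) and with no filter on low counts (0.00315). With all mice the adjusted p reached 0.0674, with all 18 samples in 1 fit, and with 1 mouse left out it reached 0.0744. In the thymus Nrarp was 1.45, 1.95, 2.29, 1.14 and 1.83 CPM in WT and 1.20, 2.30, 1.03, 1.94 and 1.10 CPM in KO mice. KO mouse 2 was at the top of the WT values and KO mouse 4 among them, while the other 3 were close to or under the lowest WT mouse, with a log2 difference of -0.17 ± 0.27 (adjusted p = 0.682, edgeR). Without KO mice 2 and 4 it was -0.63 (adjusted p = 0.0998), and with the GC trend removed it was -0.038.

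Hes1 (ENSMUSG00000022528.7, chr16:30064384-30067796, plus strand), the transcriptional repressor that is the classic Notch target, was at or near the floor in every group. Counts were 13, 4, 4, 2 and 2 in thymic WT, 3, 5, 1, 4 and 0 in thymic KO, 2, 0, 0 and 1 in splenic WT, and 0, 4, 3 and 1 in splenic KO mice. Only 6 of the 18 libraries were above 3 counts, 1 of them at 13, and no difference was detectable at this depth.

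The levels of the genes were also set beside one another between tissues of WT mice. Here 6 of 9 genes passed, 3 higher and 3 lower in the spleen, against 40.4% of all genes tested (19.5% lower and 21.0% higher). Dtx1 was 8.58-fold higher in the spleen, a log2 difference of 3.10 ± 0.14 (adjusted p = 2.15e-13, edgeR). Nrarp was 1.93-fold higher (log2 difference 0.95 ± 0.24, adjusted p = 0.00216) and Notch1 1.53-fold higher (0.61 ± 0.077, adjusted p = 1.53e-06). Notch3 was lower in the spleen, with a fitted log2 difference of -5.37 ± 0.46 (adjusted p = 6.65e-09) that rests on the 10 splenic counts given above. Jag2 was lower by 36.3% (-0.65 ± 0.17, adjusted p = 0.00278), and Dll1 was lower with a log2 difference of -1.72 ± 0.43 (adjusted p = 0.0023). Calls were lost for Jag2 without splenic WT mouse 2 (-0.62, adjusted p = 0.0109) or 4 (-0.60, adjusted p = 0.0119), for Dll1 without splenic WT mouse 1 (-1.44, adjusted p = 0.0119) and for Nrarp without splenic WT mouse 2 (0.82, adjusted p = 0.0125). Notch2 (0.32 ± 0.14, adjusted p = 0.0722), Rbpj (0.22 ± 0.092, adjusted p = 0.0486) and Maml1 (-0.17 ± 0.068, adjusted p = 0.0392) did not pass.

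Compared between genes as CPM per kb of exon, levels fell into 2 tiers. Dtx1, Notch1, Notch2, Maml1 and Rbpj had group means of 4.84 to 79.5 CPM per kb, and the other 5 genes of 0.00581 to 1.30 CPM per kb. In splenic WT mice the order was Dtx1 (79.5 ± 7.95, SD, n = 4), Notch1 (35.6 ± 0.586), Notch2 (31.1 ± 1.09), Maml1 (16.9 ± 0.467) and Rbpj (7.43 ± 0.421), and no neighbours in this order overlapped. In thymic WT mice Notch2 (25.0 ± 1.52, n = 5) and Notch1 (23.3 ± 1.84) overlapped, as did Notch1 and the next in order, Maml1. Dtx1 (9.26 ± 2.05) and Rbpj (6.37 ± 0.860) came after these and also overlapped. In thymic KO mice Notch2 followed, at 14.6 ± 4.58, Notch1 (20.4 ± 2.63) and Maml1 (17.1 ± 1.74), and its range overlapped with those of both. The ratio of Dtx1 CPM to Notch1 CPM in a library was 0.121 to 0.182 in thymic WT, 0.0926 to 0.119 in thymic KO, 0.747 to 0.942 in splenic WT and 0.713 to 0.762 in splenic KO mice.

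**Figure D3:**
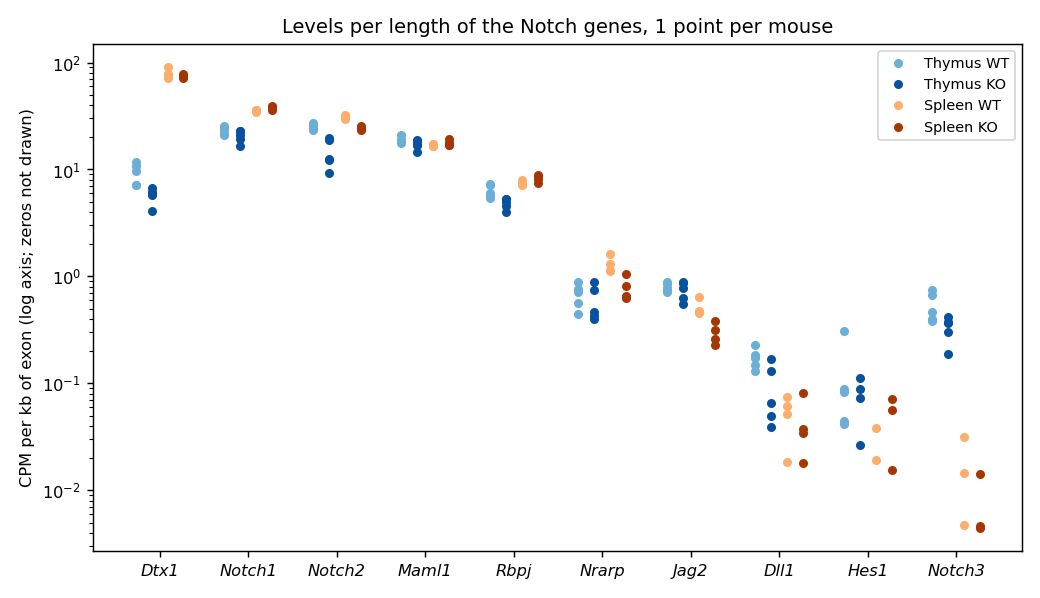
CPM per kb of exon on a log axis for the 10 genes, 1 point per mouse colored by group, ordered by the mean of splenic WT mice, with libraries at 0 counts not drawn. Dtx1 changes rank between tissues, from 9.26 in thymic WT to 79.5 in splenic WT mice, while Hes1, Dll1 and splenic Notch3 lie at the bottom.

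Of 84 other genes of the pathway, in 9 lists, 72 were tested in the thymus, where 7 were lower and 1 higher at an adjusted p under 0.01 (edgeR), which is 11.1% against the 6.16% over all genes. In the spleen 74 were tested, with 7 lower and 10 higher, or 23.0% against 9.45%. Their median log2 difference was -0.057 for the thymus and 0.039 for the spleen. The lists were drawn up with earlier results of these data known.

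Among other ligands, 1 of 5 listed genes was tested, Jag1, with a log2 difference of 0.54 in the thymus (adjusted p = 0.0828, edgeR) and 0.37 in the spleen (adjusted p = 0.200). Dll3, Dll4, Dlk1 and Dlk2 did not pass the filter in either tissue. Notch4, the remaining receptor, was 7.12 ± 1.06 CPM in thymic WT, 6.77 ± 1.17 in thymic KO, 6.94 ± 0.302 in splenic WT and 5.18 ± 0.773 in splenic KO mice, and did not pass (adjusted p = 0.797 and 0.0315).

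Of 8 enzymes that add sugars to Notch, 1 was lower in the thymus, and 2 were lower and 1 higher in the spleen. Xxylt1, a xylosyltransferase that extends the O-glucose on Notch repeats, fell in both tissues, by 0.67 on the log2 scale in the thymus (SE 0.097, adjusted p = 0.0017, edgeR) and by 0.60 in the spleen (SE 0.065, adjusted p = 1.23e-05). Lfng, the Fringe enzyme that tunes which ligands a receptor answers to, fell from 323 ± 15.3 to 254 ± 7.49 CPM in the spleen (log2 difference -0.35 ± 0.050, adjusted p = 0.000174). Gxylt1, another xylosyltransferase, rose in the spleen by 0.24 (adjusted p = 0.00732).

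Of 18 genes of endocytosis and turnover, 0 passed in the thymus and 1 in the spleen, the ubiquitin ligase gene Nedd4l, which fell by 0.87 on the log2 scale (SE 0.12, adjusted p = 9.83e-05, edgeR). Of 10 protease genes, 2 fell in the thymus and 0 passed in the spleen. Furin, which cleaves the receptor on its way to the surface, fell by 0.62 in the thymus (SE 0.12, adjusted p = 0.00478), and Psen2, a catalytic subunit of γ-secretase, fell by 0.55 (SE 0.088, adjusted p = 0.00241). The effects on these differed between the tissues, by 0.60 for Furin (adjusted p = 0.00518) and 0.66 for Psen2 (adjusted p = 0.000153), spleen minus thymus.

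Of 7 tested genes of the transcription complex besides Rbpj and Maml1, 1 fell in the thymus, and 2 fell and 2 rose in the spleen. Kat2a, a histone acetyltransferase, fell in both, by 0.39 in the thymus (SE 0.062, adjusted p = 0.00241, edgeR) and by 0.42 in the spleen (SE 0.057, adjusted p = 9.63e-05), and the related Kat2b fell by 0.25 in the spleen (adjusted p = 0.00777). Maml2 and Maml3, the other Mastermind-like coactivators, rose in the spleen by 0.24 (adjusted p = 0.00369) and 0.50 (adjusted p = 0.00928). In the thymus Maml2 was at 0.26 (adjusted p = 0.067) and Maml3 at -0.25 (adjusted p = 0.163), and neither passed. The effects differed between tissues for Maml3 (0.77, adjusted p = 0.00441, spleen minus thymus) and were not called different for Maml2 (-0.0066, adjusted p = 0.982). Of 14 tested corepressor genes, 2 fell and 1 rose in the thymus, and 1 fell and 1 rose in the spleen. Tle1, a Groucho corepressor that works with Hes proteins, fell by 0.93 in the thymus (SE 0.13, adjusted p = 0.0013) and by 0.75 in the spleen (SE 0.12, adjusted p = 0.000522). Cir1, a corepressor that binds RBPJ, rose by 0.57 (adjusted p = 0.00322) and 0.37 (adjusted p = 0.00253), and Spen, another RBPJ corepressor, fell by 0.32 in the thymus (adjusted p = 0.00529).

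Of 7 other HES, HEY and feedback genes, 3 were tested in the thymus, where 0 passed, and 4 in the spleen, where 2 rose. Hey1, a repressor of the same family as Hes1, rose in the spleen from 0.576 ± 0.247 to 1.73 ± 0.342 CPM (log2 difference 1.59 ± 0.30, adjusted p = 0.00161, edgeR). It was low, at 0.22 to 0.748 CPM in splenic WT and 1.49 to 2.24 CPM in splenic KO mice. Its value under other settings was not examined. Bhlhe40, a related basic helix-loop-helix gene that T cell receptor and cytokine signals also induce, rose from 86.5 to 183 CPM (1.08 ± 0.096, adjusted p = 2.03e-06). Of the listed targets in developing T cells, 1 of 10 tested fell in the thymus, and 1 of 11 fell and 4 rose in the spleen. Myc, which IL-2 also induces, fell in both, by 0.96 in the thymus (SE 0.11, adjusted p = 0.000364) and by 1.02 in the spleen (SE 0.065, adjusted p = 1.19e-07). Gata3, Igf1r and Cd3g rose in the spleen by 0.41 (adjusted p = 0.000125), 0.32 (adjusted p = 0.00413) and 0.27 (adjusted p = 0.0026). Over all 84 genes, 8 of 75 tested had effects that differed between tissues, 10.7% against 6.98% over all genes, and all 8 were higher for the spleen.

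**Figure D4:**
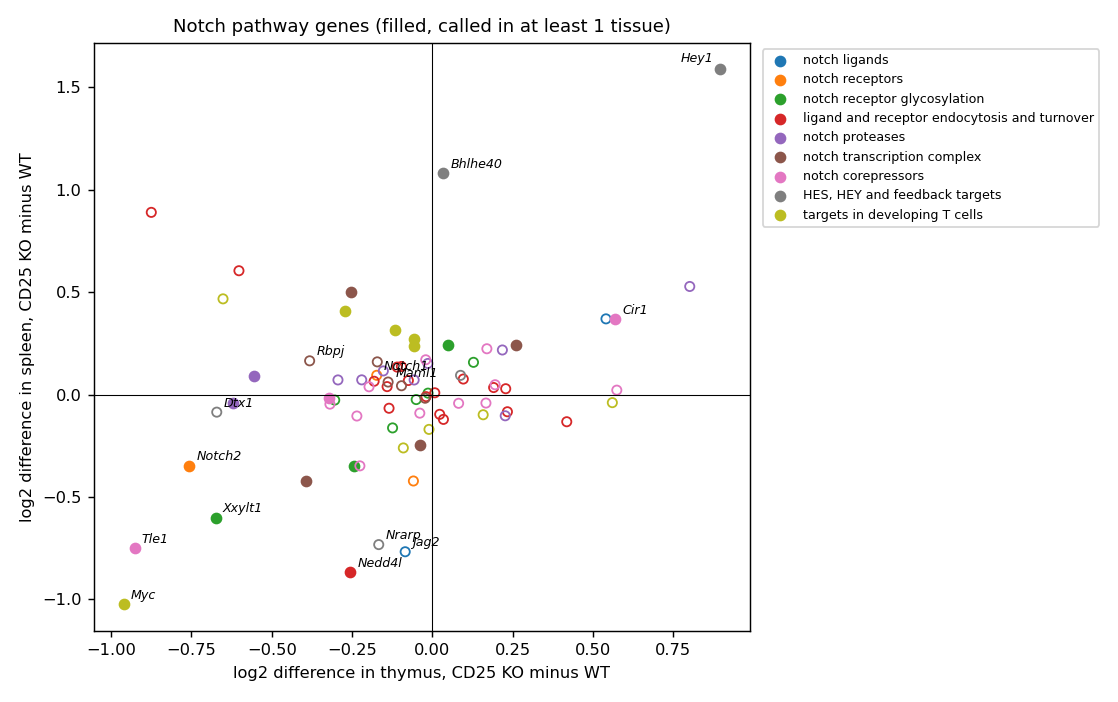
Log2 difference of KO minus WT in the thymus (horizontal) and spleen (vertical) for the 79 pathway genes tested in both tissues, the 10 main genes included where tested, colored by list and filled where called in at least 1 tissue. Myc, Tle1, Xxylt1 and Notch2 lie to the lower left, and Rbpj lies to the left of 0 in the thymus and above 0 in the spleen.

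Markers of Treg subsets and of other cells moved with some of these groups, and their part in the results was not tested. Treg markers were present in every library, with Foxp3 at 399 to 577 CPM in thymic WT, 270 to 335 in thymic KO, 322 to 345 in splenic WT and 204 to 239 in splenic KO mice. The 5 markers of effector Tregs summed to 146 to 175 CPM in thymic WT and 101 to 158 in thymic KO mice, with 4 of the 5 lower, and to 358 to 422 in splenic WT and 585 to 705 in splenic KO mice, with 5 of 5 higher. The 4 markers of central Tregs summed to 1700 to 1910 CPM in thymic WT and 1520 to 1880 in thymic KO mice, with 0 called, and to 1080 to 1330 in splenic WT and 656 to 771 in splenic KO mice, with 4 of 4 lower. Of 5 markers of Tregs that return to the thymus from the periphery, summing to 57.8 to 90.2 CPM in thymic WT and 46.6 to 60.1 in thymic KO mice, 2 fell in the thymus. Il1rl1 was 5.39 to 14.7 CPM in WT and 0 to 0.675 CPM in KO mice. Klrg1, also 1 of the effector markers, was 0.808 to 4.16 CPM in WT and at most 0.0461 CPM in KO mice. The others overlapped in the thymus and were not called. Ccr6 was 39.6 to 59.8 CPM in WT and 31.9 to 47.4 in KO mice, and Gzmb 0.939 to 1.3 and 0.15 to 1.25. Cxcr6 went the other way, at 8.41 to 12.5 CPM in WT and 11.5 to 14.4 in KO mice. Between WT mice, Ccr6 was lower in the spleen (mean 34.1 against 50.4 CPM). These values are beside the thymic values of Dtx1, Notch1 and Nrarp, which were higher in splenic than in thymic WT Tregs.

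The 8 markers of immature thymocytes summed to 79.5 to 230 CPM in thymic WT, 101 to 166 in thymic KO, 36.5 to 42.5 in splenic WT and 43.5 to 47.6 in splenic KO mice, with 0 called between KO and WT in either tissue. Thymic WT mouse 4 had the highest sum, and Rag1, Rag2 and Ptcra were at 3 counts or fewer in every splenic library. This is the same direction as Notch3, Dll1 and Jag2 between the tissues of WT mice, and its part there was not tested. The 8 myeloid and dendritic markers summed to 13.7 to 54.5 CPM in thymic WT and 18.9 to 53.0 in thymic KO mice. In the spleen they summed to 18.2 to 23.0 CPM in WT and 23.5 to 29.4 in KO mice, without overlap. Of these markers 1 was called, Lyz2, higher in the spleen of KO mice, and their part in the results was not tested. Among the B cell markers reported here, Pax5 was called, higher in the spleen of KO mice. The 8 markers of stroma and epithelium summed to 139 to 245 CPM, of which Pecam1, which T cells also express, was called lower in the spleen of KO mice, and Foxn1 was at 3 counts or fewer in every library.

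For each gene the 2 genes most alike in pattern were found by Pearson's r of log2 CPM over the 18 samples. The mean of each tissue was subtracted first. The search covered the 13122 genes tested in both tissues that had an average log2 CPM of at least 1. The points share libraries and group differences, and r is a description. Notch2 was most like Acaca (r = 0.977), the first enzyme of fatty acid synthesis, and Mthfd1l (0.976), an enzyme of mitochondrial folate metabolism. Notch1 was most like Eif4h (0.963) and Hnrnpul1 (0.954), and Dtx1 most like Ssbp4 (0.954) and Ap1b1 (0.947). Rbpj was most like Slc15a3 (0.909) and Fam129a (0.905), Maml1 like Wbp2 (0.938) and Icmt (0.923), and Jag2 like 2410002F23Rik (0.894) and Atp6v0a1 (0.880). Nrarp was nearest to Ddx11 (0.878) and Parp2 (0.836), Dll1 to Sap30l (0.853) and Nicn1 (0.821), Hes1 to Atg5 (0.810) and Smim24 (0.798), and Notch3 to Pam (0.763) and Zfp609 (0.749). The last 3 genes are at or near the floor in at least 1 tissue.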

How the data were processed

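Gene counts came from RNA-seq of FACS-purified Tregs from 18 mice, as the authors deposited them, without normalization. Per the labels and methods, ribosomal RNA was removed, paired-end reads were mapped to GRCm38 with STAR 2.5.0b, and counts were made per GENCODE M13 gene with featureCounts 1.5.0. The strand setting is not given in the sources used here, so that overlapping antisense genes could share reads. Symbols, positions, exonic length and GC content were taken from GENCODE M21, which names 50376 of the 50600 identifiers. Groups follow the sample labels.

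Within each tissue, genes were kept by filterByExpr, scaled by TMM and tested with edgeR 4.0.16 in R 4.3.3 (quasi-likelihood test, Benjamini-Hochberg adjustment, threshold 0.01). The 2 comparisons between tissues used 1 fit of all 18 samples. DESeq2 1.42.0, which the study names, was an alternative, as were other scalings, filters and thresholds, a trend in GC content and leaving out each mouse. SE is the log2 difference over the square root of F, and intervals are 95%. CPM for display was scaled over all 18 samples, and log2 CPM used a prior count of 2. The script was tested on simulated data.

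The 10 genes, the lists and the rules were chosen with earlier results of these data known. All 10 genes are named. Of each list, up to 3 called genes per direction and tissue are named, those with the largest changes, and genes outside this rule (Jag1, Notch4 and those not tested) were chosen after their values were seen. Samples are labelled as separate, and p-values measure the spread between them. A marker gene is not reported here.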

Additional observations from a re-analysis of the deposited data

Results flagged for a closer look

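In 40 sets of values (10 genes in 4 groups), the highest or lowest mouse was compared with the rest of its group by Dixon's test at the 95% level, which flags about 1 in 20 groups by chance, and 3 were flagged. Splenic WT mouse 1 had Jag2 at 4.45 CPM and Rbpj at 103 CPM, both far above the other 3 controls. Without this mouse the splenic log2 difference of Jag2 was -0.64 (adjusted p = 0.0386, edgeR) and that of Rbpj was 0.20 (adjusted p = 0.0461). Hes1 was 0.630 CPM in thymic WT mouse 1, which is 13 counts.

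The effect of CD25 KO on Rbpj differed between the tissues by 0.56 on the log2 scale, spleen minus thymus, in the test of the difference itself (adjusted p = 0.00653, edgeR). That call was lost in 10 of the 18 fits that left out 1 mouse.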

How the results depend on the processing

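Genes called between thymic KO and WT mice numbered 1047, against 2763 with DESeq2, 2881 with all 18 samples in 1 fit, 3951 at a threshold of 0.05 and 2008 without KO mice 2 and 4, and 371 to 1087 with 1 mouse left out (371 without KO mouse 3). Of the 9 Notch genes 0 were called, against 3 with DESeq2, with all 18 samples or at 0.05, 2 with no filter, 1 with the GC trend removed or without KO mice 2 and 4, and 0 to 1 with 1 mouse left out. In the spleen 1651 genes were called, against 795 with all 18 samples, 3001 at 0.05 and 1099 to 1723 with 1 mouse left out (1099 without WT mouse 3). Of the 7 Notch genes 1 was called, against 0 with all 18 samples, 2 after upper-quartile scaling, 3 with DESeq2, no filter or 0.05, and 1 to 3 with 1 mouse left out. For the difference of effects 1305 genes were called, against 2188 with DESeq2, 3149 at 0.05, 2307 without thymic KO mice 2 and 4 and 817 to 1489 with 1 mouse left out (817 without splenic KO mouse 2). Of the Notch genes 1 was called, against 0 after upper-quartile scaling, 2 at 0.05, 3 without thymic KO mice 2 and 4 and 0 to 1 with 1 mouse left out. Between the tissues of WT mice 7557 genes were called, with 6690 to 7211 when 1 mouse was left out, and 6 Notch genes, with 4 to 6. Where these counts moved the cause was not tested.

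The sign turned for thymic Jag2 with the GC trend removed (0.090), with the GC trend and the replicate block together (0.077), without KO mice 2 and 4 (0.0072) and without KO mouse 2 (-0.16 to 0.0053 with 1 mouse left out), and for the difference of Notch3 without splenic WT mouse 3 (0.51) or KO mouse 4 (0.049), with a range of -1.19 to 0.51 when 1 mouse was left out. The fit without KO mice 2 and 4 was added after seeing the data.

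Thymic groups share mouse numbers in the labels. Deviations of same-numbered mice from their group means correlated at -0.18 to 0.11, with 1 of 5 over 0.1. The 20 pairs with other numbers were at -0.18 to 0.19, with 3 over 0.1. Pairing by number was thus not seen, but 5 pairs are too few to exclude it. A replicate block left 209 genes and 0 Notch genes called, and with the GC trend removed 240 genes and 1 Notch gene. Hes1 in either tissue and Notch3 and Dll1 in the spleen were limited by depth.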
